A study of Arabidopsis thaliana with 4 samples.

Results

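The mitochondrial genome genes are the 146 loci whose identifiers begin with ATMG, out of 33557 loci in each of the authors' 2 deposited tables. They were sorted by gene symbol into 3 ribosomal RNAs (rRNA), 21 transfer RNAs (tRNA), 14 NAD loci, 1 COB, 3 COX, 5 ATP, 5 CCM and 6 ribosomal protein genes, 85 numbered open reading frames (ORF), 2 others (MATR and ORFX) and 1 locus without a symbol. RNA was sequenced from whole Arabidopsis thaliana seedlings of 2 mutants in the Col-0 strain. The first was hdp3-2, a mutant of HDP3, a Harbinger transposase kept by the plant as a host protein, and the second was asil1-2, a mutant of ASIL1, a trihelix DNA-binding factor. There were 2 libraries for each mutant. Seedlings were 14 days old, from seed chilled for 3 days at 4 °C, and grew on sucrose medium at 22 °C in long days (16 h light, 8 h dark). Each mutant was compared by the authors with Col-0 wild type. Libraries of wild type are not part of the samples described here, so the number, age and tissue of the Col-0 plants are unknown. No source used here says whether the seedlings of a library were pooled, whether its libraries came from separately grown plants, or whether polyadenylated RNA was enriched.

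Plant mitochondria keep a small genome of their own. It encodes part of the respiratory chain, part of the ATP synthase, proteins that mature cytochrome c, and the rRNAs, tRNAs and some of the ribosomal proteins of the mitochondrial ribosome. Most other mitochondrial proteins are encoded in the nucleus and imported, and nuclear-encoded factors splice, edit and degrade the mitochondrial transcripts. Arabidopsis also carries a large insertion of mitochondrial DNA near the centromere of chromosome 2, so many mitochondrial genes have a near-identical nuclear copy.

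The values are FPKM, in which fragment numbers are corrected for the length of the transcript and the size of the library, with 1 value per gene and genotype that the authors combined over libraries. No value per library was at hand, so depth is unknown, and error between libraries is known only by way of the authors' Cuffdiff statistic. All FPKM, p and q values given here come from the authors' deposited tables, and a gene is said to have risen or fallen only where Cuffdiff tested it and its q was under 0.05. Their p-values then reflect the spread among the sequenced samples and nothing beyond it, and that spread may be technical. Log2 fold changes were computed from FPKM, mutant over Col-0, with a standard error (SE) from the authors' statistic. Of 5 green leaf markers, all had at least 1640 FPKM in hdp3-2, 1771 FPKM in asil1-2 and 2140 FPKM in Col-0, while the 3 flower markers had at most 0.196 FPKM in hdp3-2, 0.0755 FPKM in asil1-2 and 0.227 FPKM in Col-0. Of 5 root markers, 0 were called in hdp3-2, where Cuffdiff gave 1 an unadjusted p under 0.05, and in asil1-2 2 rose and 1 fell, with summed levels of 33.2 FPKM in hdp3-2, 39.3 FPKM in asil1-2 and 23.96 FPKM in Col-0, and their part in the results was not tested. The 3 seed storage protein markers summed to 2.71 FPKM in hdp3-2, 0.886 FPKM in asil1-2 and 1.51 FPKM in Col-0, highest in hdp3-2 and lowest in asil1-2. Of these, 0 of 2 tested in hdp3-2 and 0 of 1 tested in asil1-2 were called by Cuffdiff, while 1 in each had an unadjusted p under 0.05, and their part in the results was not tested. ASIL1 was at 4.16 FPKM in asil1-2 and 22.9 FPKM in Col-0 in the authors' deposited table (Cuffdiff q = 0.00165). The tables pair no locus with the name HDP3, so the hdp3-2 label has no such check. In whole seedlings, fewer cells or organelles of a kind and less RNA in each cannot be told apart.

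Sequences of 3 genes show how closely mitochondrial genes match nuclear DNA. The mitochondrial genes were cut into 50-base windows, and each window was searched for in the nuclear chromosomes, both strands, without mismatches. The RefSeq mitochondrial sequence that comes with TAIR10.1 was used for this, and its coordinates are not those of the deposited tables, whose positions are on the TAIR10 mitochondrial sequence. The first sequence is ATP9, the membrane ring subunit of ATP synthase, as it stands on chromosome 2, at chr2:3251856-3252080 of TAIR10, minus strand. It is identical over its whole length to mitochondrial atp9, and capitals mark its first and last codon.
ATP9 copy: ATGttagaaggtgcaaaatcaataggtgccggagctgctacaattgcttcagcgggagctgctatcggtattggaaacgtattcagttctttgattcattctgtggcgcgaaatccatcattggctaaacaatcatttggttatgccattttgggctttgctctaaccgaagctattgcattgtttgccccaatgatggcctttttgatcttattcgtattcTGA
The next pair is a stretch of NAD7, a subunit of complex I, shown because it holds 1 of the 6 differences found over 6081 aligned bases (99.9% identity). Capitals mark the substitution A2040G, counted from 1 at the 5′ end of the mitochondrial gene, which lies at MT:243261-243321 of TAIR10.1, minus strand, and at chr2:3390463-3390523 of TAIR10, plus strand.
NAD7, mitochondrial: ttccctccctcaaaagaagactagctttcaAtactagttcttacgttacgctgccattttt
NAD7, chromosome 2: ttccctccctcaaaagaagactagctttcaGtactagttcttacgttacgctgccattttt
The last is the start of RRN18, the rRNA of the small ribosomal subunit, from MT:128104-128223 of TAIR10.1, minus strand. It is shown because only 0.4% of the windows of that gene had an exact nuclear match and because it was 1 of the 2 mitochondrial genes that rose.
RRN18, first bases: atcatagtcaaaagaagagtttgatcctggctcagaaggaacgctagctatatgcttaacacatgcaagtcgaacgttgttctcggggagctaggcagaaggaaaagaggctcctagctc

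The large and small mitochondrial rRNAs were the most abundant mitochondrial transcripts in every genotype, and both rose in hdp3-2. RRN26 (ATMG00020, Mt:8848-11415), the rRNA of the large ribosomal subunit, had 139.6 FPKM in hdp3-2, 61.1 FPKM in asil1-2 and 51.2 FPKM in Col-0. Its log2 fold change was 1.45 ± 0.29 (SE) in hdp3-2, with p = 5e-05, the smallest in the authors' deposited tables, and a Cuffdiff q of 0.00374. In asil1-2 it was 0.23 ± 0.24, with a Cuffdiff p of 0.1825 in the authors' deposited table, and was not called. RRN18 (ATMG01390, Mt:361350-363284) had 144.8 FPKM in hdp3-2, 70.9 FPKM in asil1-2 and 61.0 FPKM in Col-0. The log2 fold change of RRN18 was 1.25 ± 0.30 in hdp3-2 (Cuffdiff q = 0.00374 in the authors' deposited table) and 0.19 ± 0.24 in asil1-2 (q = 0.604). In both genes the hdp3-2 level was the high one, and asil1-2 lay nearer to Col-0 than to hdp3-2. When the genotypes were scaled to equal summed nuclear FPKM, RRN26 was at 0.91 in hdp3-2 and 0.61 in asil1-2 in log2 fold change. RRN18 was then at 0.71 in hdp3-2 and 0.57 in asil1-2. The direction held, but with this scaling asil1-2 lay nearer to hdp3-2 than to Col-0 in both genes. Which genotype asil1-2 resembles in these rRNAs therefore depends on the scaling. These were the only mitochondrial genes called in either table. The 24 members with a test in hdp3-2 gave 2 that rose and 0 that fell. Of all 20177 genes with a test in that comparison 3.08% were called, 1.30% as higher and 1.78% as lower in hdp3-2. RRN5, the 5S rRNA, was listed at 0 in all 3 genotypes. Together RRN26 and RRN18 made up 84.2% of the summed FPKM of the 146 loci in hdp3-2, 87.7% in asil1-2 and 85.0% in Col-0.

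**Figure D1:**
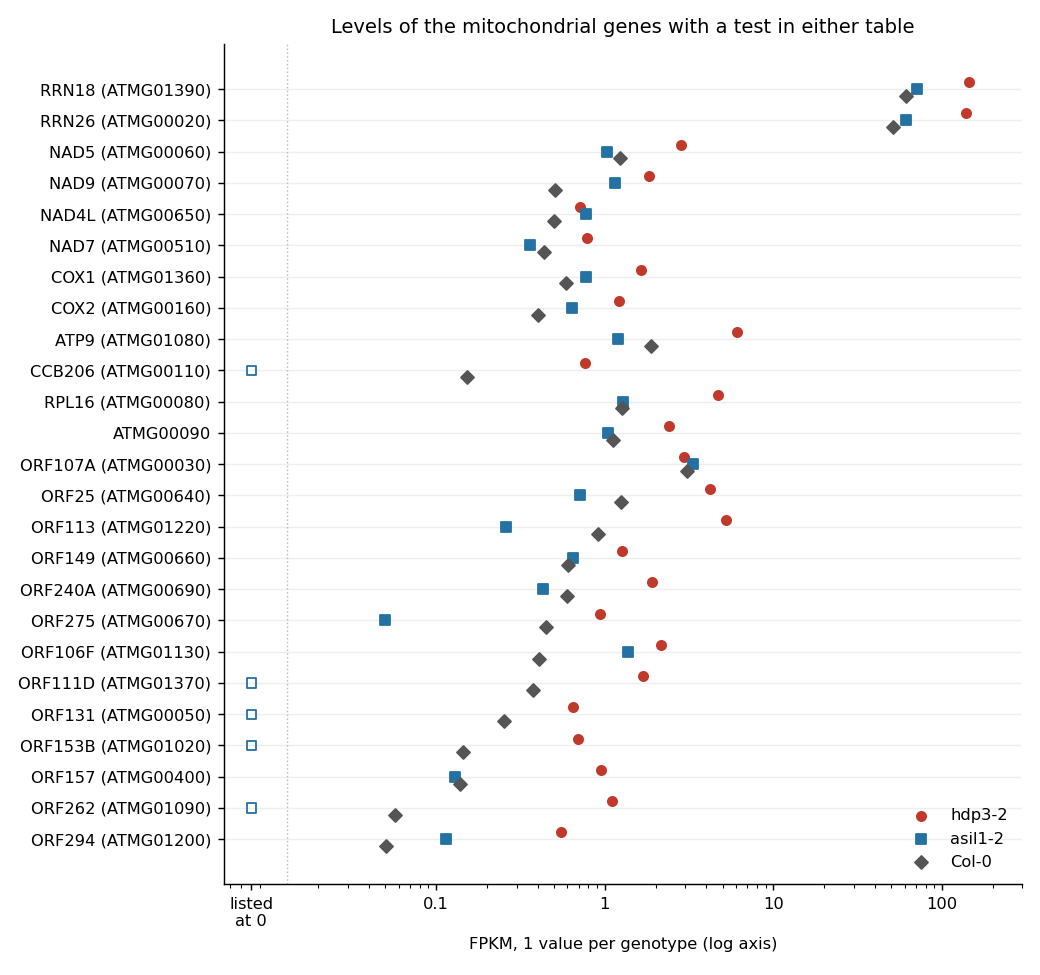
FPKM on a log axis (horizontal) of the 25 mitochondrial genes with a Cuffdiff test in either table, 1 value per genotype, with hdp3-2 as circles, asil1-2 as squares, Col-0 as diamonds and open marks for genes listed at 0. The 2 large rRNAs lie above 50 FPKM in every genotype, and the remaining genes lie at or below 6.12 FPKM.

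The protein-coding and ORF loci were low, and 0 of them passed the test in hdp3-2. Of the 24 members tested in hdp3-2, 16 had under 1 FPKM in Col-0, and 7 members besides the rRNAs had an unadjusted Cuffdiff p under 0.05 in the authors' deposited table, all of them with the higher value in hdp3-2. In asil1-2, 0 of 16 tested members were called by Cuffdiff and 0 had an unadjusted p under 0.05, while of all 20205 genes with a test there 8.42% were called, 2.71% as higher and 5.72% as lower in asil1-2. A test was given in both tables for 15 members, in hdp3-2 alone for 9 and in asil1-2 alone for 1, NAD4L. The 9 tested in hdp3-2 alone had 0.552 to 1.68 FPKM there and 0.0508 to 0.446 FPKM in Col-0, and 5 of them were listed at 0 in asil1-2. Which genes were tested therefore moved with the level in hdp3-2, and the counts below over all 146 loci do not depend on it.

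NAD genes encode subunits of complex I, the NADH dehydrogenase that starts the respiratory chain. None of the 3 tested in each table was called. NAD5 (ATMG00060), 1 of the loci that carry parts of the trans-spliced nad5 gene, was the highest of the class in hdp3-2 and Col-0, at 2.82 FPKM in hdp3-2, 1.03 FPKM in asil1-2 and 1.22 FPKM in Col-0. Its log2 fold change was 1.21 ± 0.89 in hdp3-2 and -0.27 ± 1.06 in asil1-2. NAD9 (ATMG00070), a subunit of the peripheral arm of complex I, had 1.82 FPKM in hdp3-2, 1.16 FPKM in asil1-2 and 0.510 FPKM in Col-0, with log2 fold changes of 1.84 ± 1.17 in hdp3-2 and 1.15 ± 1.24 in asil1-2. Over all 14 NAD loci, FPKM was higher in hdp3-2 than in Col-0 at 7 and lower at 2, and higher in asil1-2 than in Col-0 at 4 and lower at 5. The median log2 fold change was 0.86 over the 7 NAD loci above 0 in both hdp3-2 and Col-0, and 0.13 over the 8 above 0 in both asil1-2 and Col-0. NAD3 and NAD6, also complex I subunits, were listed at 0 in every genotype. NAD1 (ATMG01120), which carries part of the split nad1 gene, was listed at 0 in both mutants and at 0.657 FPKM in Col-0, with no test in either table.

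COB, cytochrome b of complex III, was listed at 0 in all 3 genotypes. The 3 COX genes, which encode the core subunits of cytochrome c oxidase, were above 0 everywhere, and each was higher in both mutants than in Col-0. COX1 (ATMG01360), the subunit that holds the site of oxygen reduction, had 1.63 FPKM in hdp3-2, 0.777 FPKM in asil1-2 and 0.587 FPKM in Col-0. Its log2 fold change was 1.47 ± 0.69 in hdp3-2, with p = 0.00565 and a Cuffdiff q of 0.118 in the authors' deposited table, and 0.38 ± 0.73 in asil1-2. COX2 (ATMG00160), which takes electrons from cytochrome c, had 1.22 FPKM in hdp3-2, 0.638 FPKM in asil1-2 and 0.399 FPKM in Col-0. The log2 fold change of COX2 was 1.61 ± 1.08 in hdp3-2 and 0.65 ± 1.19 in asil1-2. COX3 was at 0.340 FPKM in hdp3-2, 0.296 FPKM in asil1-2 and 0.196 FPKM in Col-0, without a test. Neither tested COX gene passed in either mutant.

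Of the ATP synthase genes, ATP9 was the highest and the one with a test. ATP9 (ATMG01080, Mt:278649-279152) had 6.12 FPKM in hdp3-2, 1.19 FPKM in asil1-2 and 1.88 FPKM in Col-0. Its log2 fold change was 1.71 ± 0.79 in hdp3-2 (p = 0.00925, Cuffdiff q = 0.157 in the authors' deposited table) and -0.68 ± 0.98 in asil1-2. ORF25 (ATMG00640) stands among the ORFs by its symbol but encodes ATP4, the b subunit of ATP synthase. It had 4.19 FPKM in hdp3-2, 0.717 FPKM in asil1-2 and 1.24 FPKM in Col-0, with log2 fold changes of 1.75 ± 0.84 in hdp3-2 (p = 0.01295, Cuffdiff q = 0.190 in the authors' deposited table) and -0.82 ± 1.07 in asil1-2. Both genes had their highest value in hdp3-2 and their lowest in asil1-2. ATP1, ATP6 and ATP6-2 were under 0.4 FPKM wherever they were above 0, and ATP8 was listed at 0 throughout.

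The CCM genes, whose products attach heme to cytochrome c, were close to 0. CCB206 (ATMG00110), which encodes CcmB, had 0.761 FPKM in hdp3-2 and 0.153 FPKM in Col-0 and was listed at 0 in asil1-2. Its log2 fold change in hdp3-2 was 2.32 ± 1.68. Of the 6 ribosomal protein genes, 4 were listed at 0 in every genotype. RPL16 (ATMG00080), a protein of the large ribosomal subunit, had 4.71 FPKM in hdp3-2, 1.29 FPKM in asil1-2 and 1.27 FPKM in Col-0. The log2 fold change of RPL16 was 1.89 ± 1.12 in hdp3-2 (p = 0.0377, Cuffdiff q = 0.337 in the authors' deposited table) and -0.01 ± 1.20 in asil1-2. The locus without a symbol, ATMG00090, shares its span with RPL16 in the deposited tables, so reads may have been divided between them. ATMG00090 had 2.42 FPKM in hdp3-2, 1.05 FPKM in asil1-2 and 1.12 FPKM in Col-0, with log2 fold changes of 1.11 ± 0.55 in hdp3-2 (p = 0.00815, Cuffdiff q = 0.146 in the authors' deposited table) and -0.12 ± 0.57 in asil1-2. MATR, the maturase-related protein encoded within a nad1 intron, was at 0.175 FPKM in hdp3-2, 0.0183 FPKM in asil1-2 and 0.115 FPKM in Col-0, and ORFX, a MttB-type transporter gene, was below it in each genotype.

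**Figure D2:**
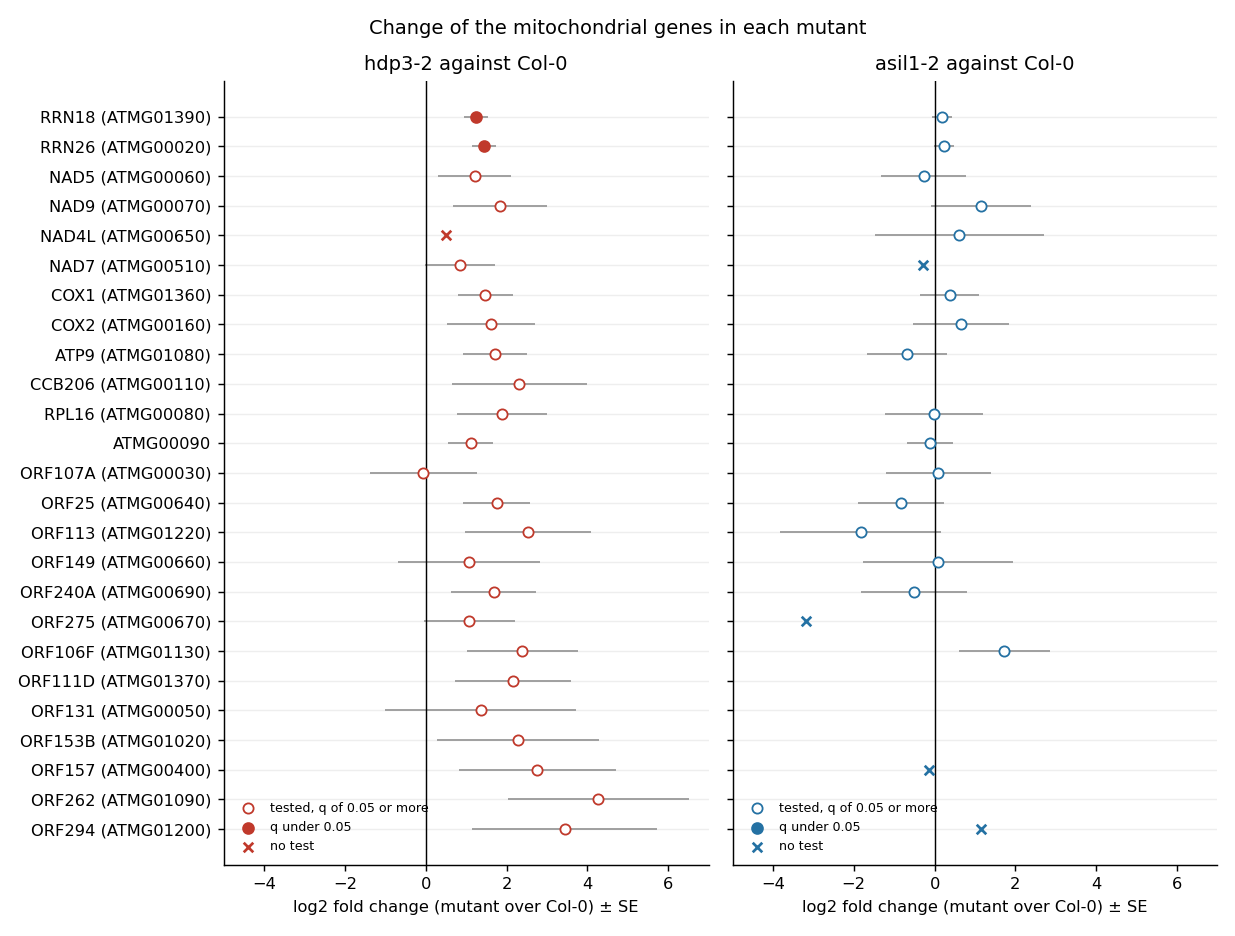
Log2 fold change (mutant over Col-0) ± SE of the same 25 mitochondrial genes, hdp3-2 on the left and asil1-2 on the right, with filled circles for a Cuffdiff q under 0.05, open circles for other tested genes, crosses for genes without a test and no mark for genes listed at 0. Only RRN26 and RRN18 are filled, both in hdp3-2, at 1.45 and 1.25, and the error bars of most low genes span more than 1 log2 unit on each side.

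The 85 ORFs, most of them reading frames with no known product, formed the largest class. FPKM was higher in hdp3-2 than in Col-0 at 24 and lower at 4, and higher in asil1-2 than in Col-0 at 8 and lower at 14. The median log2 fold change was 1.72 over the 16 ORFs above 0 in both hdp3-2 and Col-0, and -0.50 over the 11 above 0 in both asil1-2 and Col-0. ORF107A (ATMG00030), the highest ORF in Col-0, had 2.96 FPKM in hdp3-2, 3.36 FPKM in asil1-2 and 3.08 FPKM in Col-0. With log2 fold changes of -0.06 ± 1.33 in hdp3-2 and 0.096 ± 1.30 in asil1-2, ORF107A was the 1 tested member with a negative value in hdp3-2. ORF113 (ATMG01220) had 5.24 FPKM in hdp3-2, 0.260 FPKM in asil1-2 and 0.910 FPKM in Col-0. Its log2 fold changes of 2.53 ± 1.56 in hdp3-2 and -1.83 ± 2.00 in asil1-2 went with p of 0.0872 and 0.399 in the authors' deposited tables. ORF240A (ATMG00690) had 1.91 FPKM in hdp3-2, 0.429 FPKM in asil1-2 and 0.597 FPKM in Col-0, with log2 fold changes of 1.68 ± 1.06 in hdp3-2 and -0.50 ± 1.31 in asil1-2. ORF106F (ATMG01130) had 2.15 FPKM in hdp3-2, 1.38 FPKM in asil1-2 and 0.409 FPKM in Col-0, and ORF149 (ATMG00660) had 1.27 FPKM in hdp3-2, 0.651 FPKM in asil1-2 and 0.603 FPKM in Col-0. None of these ORFs was called in either mutant. All 21 tRNAs, which bring amino acids to the ribosome, were listed at 0 in every genotype. Apart from TRNC and TRND, which share longer spans with ORFs, they are 62 to 97 bases long. The part of this short length in the 0 values was not tested.

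A large share of the mitochondrial loci was listed at 0, which can be a failed estimate as well as a low level. In each comparison, every mitochondrial locus at 0 in either genotype was marked as not tested by Cuffdiff, and none as failed. That mark does not tell a low level from a value lost in estimation. Of the 146 loci, 97 (66.4%) were at 0 in hdp3-2 in the authors' deposited tables, 109 (74.7%) in asil1-2 and 104 (71.2%) in Col-0. For nuclear genes outside the chromosome 2 copy the shares were 29.5% in hdp3-2, 29.4% in asil1-2 and 30.5% in Col-0. Of the mitochondrial loci, 21 are shorter than 300 bases, and the part of length in these shares was not tested. In all 3 genotypes 90 mitochondrial loci were at 0, and 30 were above 0 in all 3. Another 8 were above 0 in hdp3-2 alone, 2 in asil1-2 alone and 4 in Col-0 alone. Both mutants but not Col-0 were above 0 at 4 loci. A further 7 were above 0 in hdp3-2 and Col-0 but not in asil1-2, and 1 in asil1-2 and Col-0 but not in hdp3-2. By class, 69.4% of the ORFs were at 0 in hdp3-2, 82.4% in asil1-2 and 78.8% in Col-0. Of the 14 NAD loci, 7 were at 0 in hdp3-2, 6 in asil1-2 and 5 in Col-0. No COX gene was at 0, and the ribosomal protein genes were at 66.7% in each genotype.

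**Figure D3:**
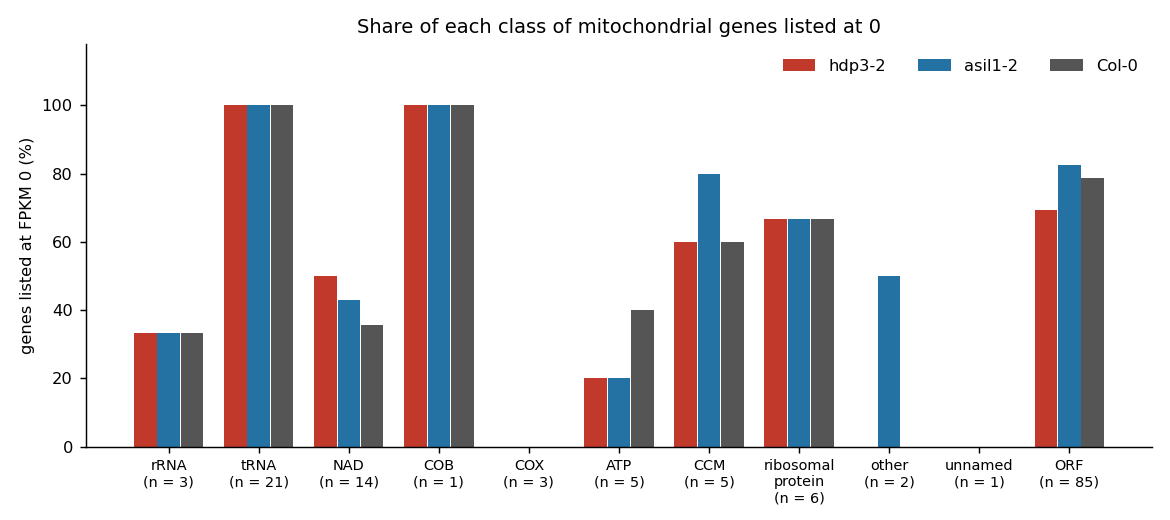
Percent of the loci in each class (vertical axis) listed at FPKM 0, with bars for hdp3-2, asil1-2 and Col-0 from left to right and the class size under each name. All tRNAs and COB are at 100% in every genotype and no COX gene is at 0.

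Over all 146 loci, tested or not, FPKM was higher in hdp3-2 than in Col-0 at 46 and lower at 8, with 92 at 0 in both. In asil1-2 the level was higher than in Col-0 at 19 and lower at 29, with 98 at 0 in both. Of the 37 loci above 0 in both hdp3-2 and Col-0, 34 lay above 0 in log2 fold change, and the median was 1.35, within a range of -1.24 to 4.27. That median was 0.82 when the genotypes were scaled to equal summed FPKM of nuclear genes. Of the 31 above 0 in both asil1-2 and Col-0, 13 lay above 0, and the median was -0.12. It became 0.26 with the same scaling, so the mutants' medians then lay closer together, on sums that very high nuclear genes weigh on. Centred on the nuclear median instead, the medians were 1.42 in hdp3-2 and -0.04 in asil1-2. The same counts over nuclear genes outside the copy were 10377 higher and 13641 lower in hdp3-2, median -0.06, and 10204 higher and 13825 lower in asil1-2, median -0.07. Plastid genes, the other organelle set, were higher in hdp3-2 at 62 loci and lower at 3, with a median of 0.93, and 15 of 59 tested were called, all as higher, beside 1.30% called higher over all tested genes. In asil1-2 they were higher at 40 and lower at 22, with a median of 0.13, and 0 of 58 tested were called by Cuffdiff, while 6 had an unadjusted p under 0.05. Summed plastid FPKM was 2.36e+06 in hdp3-2 and 652 in Col-0, and it was 2.63e+05 in asil1-2 and 664 in Col-0 in the other table. The highest single plastid row reached 1.24e+06 FPKM in hdp3-2 and 2.62e+05 FPKM in asil1-2, against 73.9 FPKM in Col-0. The 73.9 FPKM is the highest Col-0 value of any plastid row, not that of the same row. Over plastid loci above 0 in both mutant and Col-0, the largest log2 fold change was 1.98 in hdp3-2 and 2.28 in asil1-2. The plastid row with the highest value in each mutant was therefore listed at 0 in Col-0. Such rows make up much of the mutant sums, so these sums give no fold change for plastid genes as a set. The plastid counts and median moved with the mitochondrial ones in hdp3-2, and their part in the result was not tested. Summed over the 146 loci, FPKM was 338 in hdp3-2 and 132 in Col-0, a ratio of 2.56. In the asil1-2 table it was 150 in asil1-2 and 134.5 in Col-0, a ratio of 1.12. The Col-0 columns of the tables differ by a factor of 0.982, since each table was scaled on its own.

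**Figure D4:**
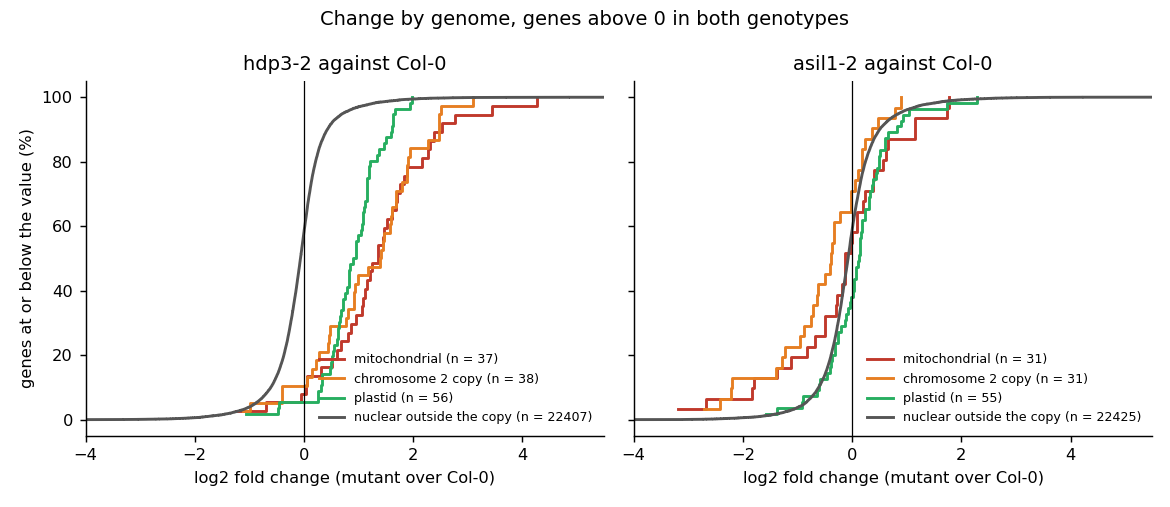
Cumulative percent of genes (vertical) at or below each log2 fold change (horizontal, mutant over Col-0), for mitochondrial, chromosome 2 copy, plastid and other nuclear genes above 0 in both genotypes, with hdp3-2 on the left and asil1-2 on the right. In hdp3-2 the mitochondrial curve has its median at 1.35, near that of the chromosome 2 copy at 1.41, while other nuclear genes have theirs at -0.06.

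The change in hdp3-2 was set against the change in asil1-2 gene by gene. The shared Col-0 enters both, so this difference reflects the levels in the mutants, and its SE counts the Col-0 error in both. Of the 15 mitochondrial genes tested in both tables, 14 had the larger log2 fold change in hdp3-2 and 0 passed a z test with Benjamini-Hochberg adjustment over 19977 genes, beside 0.130% of all genes tested that passed. Of these 15, 2 had an unadjusted p under 0.05. Computed from the statistics in the authors' deposited tables, the difference was 1.22 ± 0.38 for RRN26 (z test p = 0.00132, adjusted p = 0.470) and 1.06 ± 0.38 for RRN18 (z test p = 0.00570, adjusted p = 1.00). With the summed variance of the authors' deposited tables multiplied by 0.5, to allow for the shared Col-0, both passed the z test (adjusted p = 0.00200 for RRN26 and 0.0199 for RRN18), beside 0.626% of all genes. The factor assumes that Col-0 supplies a share of 0.5 of the summed variance, and its actual share is unknown. The rRNA difference between the mutants is therefore called or not according to how the shared wild type is weighed, and this test was not run on the scaling to equal nuclear sums.

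Of the mitochondrial loci, 37 could be matched to a gene of the RefSeq mitochondrial sequence. Only 27 of the 37 had about the same length there as the locus behind the FPKM, so share and level can cover different spans. In 25 of the 37, 91.7% to 100% of the 50-base windows had an exact nuclear match. In 12 the share was 34.6% or less, with 8 at 0%. The insertion at chr2:3239038-3509765 of TAIR10, 270.7 kb long, held 98.0% of the exact nuclear windows. The matched members with a nearly whole exact copy were mostly at or near 0. Of the 25, 14 were listed at 0 in hdp3-2, 14 in asil1-2 and 13 in Col-0, and at least 0.5 FPKM was reached by 2 in hdp3-2, 1 in asil1-2 and 1 in Col-0. Of the 12 with little exact copy, 2 were at 0 in hdp3-2, 3 in asil1-2 and 1 in Col-0, with medians of 1.73 FPKM in hdp3-2, 0.778 FPKM in asil1-2 and 0.622 FPKM in Col-0. RRN26 had no exact nuclear window and RRN18 7, so the called members had almost no exact match in the nuclear chromosomes of the assembly. ATP9, at 100% over the 225 bases of its RefSeq gene, was above 1 FPKM in every genotype, a level that belongs to a locus of 504 bases. How reads with more than 1 match were handled is not given in the sources used here, and reads from an exact copy and from the mitochondrial gene cannot be told apart.

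**Figure D5:**
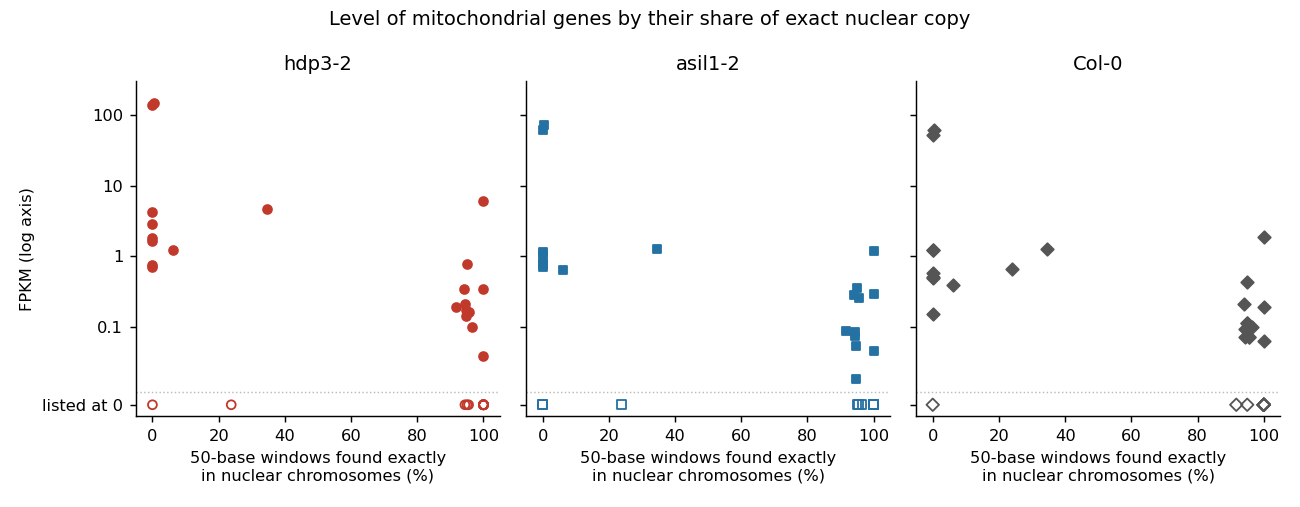
FPKM on a log axis (vertical) of the 37 matched mitochondrial genes against the percent of 50-base windows found exactly in nuclear chromosomes (horizontal). Windows are of the RefSeq gene, and there is 1 panel per genotype, with open marks for genes listed at 0. Above 90% only ATP9 exceeds 1 FPKM in any genotype, and RRN26 and RRN18 stand at the upper left of each panel.

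The nuclear loci inside the chromosome 2 insertion also had mostly higher values in hdp3-2. Of 129 such loci, FPKM was higher in hdp3-2 than in Col-0 at 54 and lower at 6, and higher in asil1-2 than in Col-0 at 22 and lower at 31. The median log2 fold change was 1.41 over 38 loci in hdp3-2 and -0.39 over 31 in asil1-2. Cuffdiff tested 16 of them in hdp3-2, of which 2 rose and 0 fell, and 1 in asil1-2, which was not called and had a p of 0.464. Over all tested genes 3.08% were called in hdp3-2, 1.30% as higher. An FPKM of at least 1 was reached by 8 of the 129 loci in hdp3-2 and 0 in Col-0. Which loci were tested therefore moved with the level in hdp3-2, and their share of calls does not compare evenly with that of all genes. The 2 that rose had no test in asil1-2. AT2G07709, which shares exact sequence with NAD7, had 1.41 FPKM in hdp3-2, 0.539 FPKM in asil1-2 and 0.535 FPKM in Col-0. Its log2 fold change in hdp3-2 was 1.40 ± 0.44 (Cuffdiff q = 0.00374 in the authors' deposited table). AT2G07708 has the same span and shares the same sequence with NAD7, so reads may have been divided between AT2G07709 and AT2G07708. The log2 fold change of AT2G07708 in hdp3-2 was 2.48 ± 1.52, and it was not called (Cuffdiff q = 0.655 in the authors' deposited table). AT2G07717, which shares exact sequence with NAD4, had 1.12 FPKM in hdp3-2, 0.328 FPKM in asil1-2 and 0.378 FPKM in Col-0, with a log2 fold change in hdp3-2 of 1.57 ± 0.46 (Cuffdiff q = 0.00374 in the authors' deposited table). The mitochondrial rows of NAD7 and NAD4 were lower than these 2 called copies. NAD7 was tested in hdp3-2 alone and not called (Cuffdiff q = 0.652 in the authors' deposited table), and NAD4 had no test in either mutant. NAD7 (ATMG00510) was at 0.785 FPKM in hdp3-2, 0.361 FPKM in asil1-2 and 0.434 FPKM in Col-0. NAD4 (ATMG00580) was at 0.143 FPKM in hdp3-2, 0.0537 FPKM in asil1-2 and 0.115 FPKM in Col-0. A further pair was chosen after its values were seen. COB was listed at 0 in its mitochondrial row, while its copy AT2G07727 had 0.719 FPKM in hdp3-2, 0.149 FPKM in asil1-2 and 0.270 FPKM in Col-0 and did not pass (Cuffdiff q = 0.358 in the authors' deposited table). For ATP9, the row of the identical copy, AT2G07671, had 5.76 FPKM in hdp3-2, 1.18 FPKM in asil1-2 and 0.673 FPKM in Col-0.

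Nuclear genes whose proteins work with those of the mitochondrial genome were counted against the share of all tested genes that Cuffdiff called, 3.08% in hdp3-2 and 8.42% in asil1-2. Of 45 nuclear-encoded subunits of complexes I to V and cytochrome c, all tested, 1 rose and 0 fell in hdp3-2, a share near that of all genes, with a median log2 fold change of -0.06, beside -0.06 for nuclear genes. The one that rose was AT5G25450, a small subunit of complex III, at 3.43 FPKM in hdp3-2 and 0.687 FPKM in Col-0, with a log2 fold change of 2.32 ± 0.71 (Cuffdiff q = 0.0154 in the authors' deposited table). In asil1-2, 0 of the 45 were called by Cuffdiff and 4 had an unadjusted p under 0.05, with a median of 0.13. Of 17 nuclear factors that process mitochondrial RNA, 0 were called in hdp3-2, where 1 had an unadjusted Cuffdiff p under 0.05, and 3 rose in asil1-2. These were AT5G14580, the mitochondrial polynucleotide phosphorylase that trims and degrades RNA, at 1.12 ± 0.31 in log2, and the RNA editing factors AT5G44780 (MORF4) at 0.95 ± 0.36 and AT2G35240 (MORF6) at 0.85 ± 0.26. Of 7 nuclear genes induced by mitochondrial stress, 5 were tested. In hdp3-2, 0 of them were called by Cuffdiff and 0 had an unadjusted p under 0.05. In asil1-2, AOX1A, the alternative oxidase, fell to 30.1 FPKM in asil1-2, against 51.6 FPKM in Col-0 (log2 fold change -0.78 ± 0.25, Cuffdiff q = 0.00165 in the authors' deposited table), and BCS1 (AT3G50930), an AAA ATPase of the outer mitochondrial membrane, rose by 0.80 ± 0.36 (q = 0.0411).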

How the data were processed

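RNA-seq tables of hdp3-2 and asil1-2 seedlings against Col-0 were used. TopHat2, Cufflinks, Cuffdiff, deepTools and the build TAIR10 are named without versions, options or order, per the submitters' processing notes. The FPKM values were deposited by the authors as 1 value per gene and genotype. The deposited score column holds the statistic of the authors' test, and the deposited p-value and q-value columns are the authors' Cuffdiff p and its correction over tested genes, per the file headers. Depth per library is unknown.

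Members were the loci beginning with ATMG, in classes by symbol. Members, classes and gene lists were chosen with earlier results of these data known. A gene was called at test status OK and q under 0.05. The log2 fold change was computed from FPKM, its SE being that value divided by the authors' statistic, and genes listed at 0 in a genotype get no fold. Some fold and statistic cells of the deposited tables were damaged by spreadsheet software and were left out. The difference between the mutants was tested with a z test over all genes tested in both tables, with Benjamini-Hochberg adjustment, and this test was first run on simulated data that held 200 changed genes. Of the 32809 nuclear loci with a RefSeq entry, 32808 overlapped its span, so chromosome 2 sequence was read by coordinates. Mitochondrial sequence was taken from RefSeq TAIR10.1 by gene name, since its length of 367808 bases and the files' last position of 366700 come from different sequences. Named were called members, members tested in both tables, the rRNAs, the highest member in Col-0 of each class, and called members of the lists and of the chromosome 2 copy. A few more are given as values without a call, chosen after their values were seen. Tools were Biopython 1.88, matplotlib 3.10.9, SciPy 1.17.1, NumPy 2.4.6, pandas 2.3.3 and Python 3.11.15.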

Additional observations from a re-analysis of the deposited data

How the results depend on the processing

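The count of called mitochondrial genes was 2 in hdp3-2 and 0 in asil1-2 under every alternative run. These were a q under 0.01, a minimum of 2-fold, an FPKM minimum of 1, a recomputed adjustment and a normal reading of the statistic. Overlapping members were also left out, as were, chosen after seeing the data, members with a nuclear copy over 90%. Only the 37 matched members had been searched for a copy, so members of unknown copy status stayed in that run. The filters on q, fold, FPKM, overlap and copy can only remove calls. RRN26 and RRN18 meet all of them, with q of 0.00374 and folds of 2.73 and 2.38 in hdp3-2. Those filters are therefore no check on the count. The count was not run with genotypes scaled to equal summed nuclear FPKM. The median log2 fold change of 1.35 in hdp3-2 was 0.34 on the log2(FPKM + 1) scale and 0.82 with genotypes scaled to equal summed nuclear FPKM. It was 1.69 over members with a test and lay between 1.29 and 1.68 otherwise, the 1.68 being over members with an FPKM of at least 1. That level was reached by 17 members in hdp3-2 and 8 in Col-0. Members could pass either filter through a high level in hdp3-2 alone, so 1.69 and 1.68 may be raised by the choice of members. The median of -0.12 in asil1-2 was 0.09 over members with a test and 0.04 over members with an FPKM of at least 1. It was 0.26 with genotypes scaled to equal summed nuclear FPKM, and lay between -0.12 and -0.01 otherwise, so its sign was not stable. The scaling moved all genes by -0.54 in hdp3-2 and 0.38 in asil1-2 on the log2 scale and rests on sums in which the highest nuclear gene reached 4.69e+05 FPKM in hdp3-2 and 3.66e+05 FPKM in Col-0, and 1.11e+05 FPKM in asil1-2 and 3.73e+05 FPKM in Col-0 in the other table. On the log2(FPKM + 1) scale the hdp3-2 class medians were 0.15 for NAD, 0.67 for COX and 0.40 for ORF, and those of asil1-2 were 0.15 for COX and -0.023 for ATP, since a pseudocount of 1 exceeds most of these levels. Centring on the nuclear median put COX at 0.66 in asil1-2. With FPKM under 1 in place of 0, the shares were 88.4% in hdp3-2, 93.8% in asil1-2 and 94.5% in Col-0. With the summed variance multiplied by 0.5, 2 members differed between the mutants. Class medians of rRNA, CCM, ribosomal protein and the smaller classes were not run, since fewer than 3 members were above 0. No library could be left out, and no paired analysis was possible because the tables carry 1 value per genotype.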
